A study of Saccharomyces cerevisiae with 10 samples.

Results

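Cryptic unstable transcripts (CUTs) that were hardly read in the *rpb1-84* mutant of *Saccharomyces cerevisiae* were followed through all 5 strains of the study. A CUT was taken as a member when its counts, summed over both *rpb1-84* libraries, came to 10 or fewer. This rule kept 315 of the 925 annotated CUTs, among 10431 features counted in all, and left 610 CUTs above the limit. Since these CUTs were chosen by their counts in the *rpb1-84* libraries, their low level in that strain is a description and supports nothing here. Their share of the library was 0.411% ± 0.0315 (SD, n = 2) in the libraries labelled *rrp6∆*, while WT had 0.0449% ± 0.00180 (SD, n = 2).

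CUTs are short RNA polymerase II transcripts that arise mostly from nucleosome-free regions, often divergent from a gene promoter. They are terminated early by the Nrd1-Nab3-Sen1 (NNS) complex, given a short poly(A) tail by the TRAMP complex and degraded by the nuclear exosome, of which Rrp6 is the nuclear 3′-to-5′ exonuclease subunit. CUTs are therefore best seen in cells that lack *RRP6*. The *rpb1-84* allele changes the foot domain of Rpb1, the largest RNA polymerase II subunit, and weakens the docking of the Rpb4/7 stalk. The study asked how this assembly defect bears on non-coding transcripts, with and without the exosome subunit.

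Each strain was represented by 2 libraries of 3′ tags (QuantSeq, primed on the poly(A) tail) from independent cultures grown in YPD at 30 °C to an OD600 of about 0.8. The *rpb1-84*, WT, *rrp6∆* and *rpb1-84 rrp6∆* strains were all MATα, carried *his3-∆200*, *leu2-3* with *leu2-112*, *trp1-∆63* and *ura3-52*, and had the chromosomal *RPB1* replaced (*rpb1-∆187::HIS3*) by a 2µm *LEU2* plasmid. That plasmid was pYEB220 with *RPB1* in WT and *rrp6∆*, and pYEB220-84 with *rpb1-84* in the single and the double mutant. In these strains, the WT included, Rpb1 therefore came from a multicopy plasmid. The *rpb1-84* strain had in addition a TAP tag on *RPB4* (*RPB4::TAP::TRP1*), and the *rrp6* deletion was *rrp6∆::KanMX4* in both strains that carried it. The *rpb4∆::kanMX4* strain was of another background, listed as MATa with *his3-∆1*, *leu2-∆0*, *met15-∆0* and *ura3-∆0*. The WT libraries that the study set against *rpb1-84* and *rpb4∆* came from earlier publications and were not used here, so these strains are described without a test against their own WT. A bulk culture cannot tell fewer expressing cells from less RNA per cell.

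Libraries held from 1415496 to 7268211 counts, the fewest in *rpb4∆* and the most in *rpb1-84*. Tags on *RRP6* (YOR001W) were 231 and 171 in WT, 572 and 548 under the label *rrp6∆*, and 290 and 176 for the double mutant. The position of these tags within the gene is not known from its row, which therefore checks nothing about the deletion. Words such as "without Rrp6" below rest on the labels alone. *RPB4* (YJL140W) held 7 and 4 counts in *rpb4∆*, against 606 and 508 in WT. In the *rpb1-84* libraries, where the gene is TAP-tagged, it held 33 and 59, and in the double mutant, which carries the same *rpb1* allele without a listed tag, 1140 and 866. Of the mating-type markers, the α list summed to between 74.0 and 259 CPM (counts scaled to the library total) over the 10 libraries and the **a** list to between 2.83 and 12.6. The α sum came almost wholly from *STE3*, while both α-factor genes were near 0 in each library. In the *rpb4∆* libraries the α sum was 74.0 and 75.6 CPM and the **a** sum 3.62 and 2.83 CPM, which goes against their MATa label. Statements on *rpb4∆* below therefore concern the libraries labelled so.

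In the *rpb1-84* libraries the 315 CUTs held 472 and 910 counts in all, or 0.0129% ± 0.000485 of the total (SD, n = 2), and their median summed count was 4. Of these CUTs, 45 had no count in either *rpb1-84* library. At the limit itself stood 16 members with exactly 10 counts and 27 CUTs outside with exactly 11. The first 5 by number inside (CUT103, CUT179, CUT300, CUT411 and CUT428) had between 115 and 521 counts over both *rrp6∆* libraries, and the first 5 outside (CUT071, CUT112, CUT138, CUT142 and CUT170) between 114 and 515. Over all 16 inside, the sums in *rrp6∆* ran from 55 to 5982 with a median of 191, and over all 27 outside from 10 to 625 with a median of 157. The highest of the 16 was CUT567, and 1 more count would have left this most abundant member out. Of the CUTs that the study followed by RT-qPCR, CUT638 lay just outside with 11 *rpb1-84* counts and CUT474 well outside with 57.

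Most of the members were also scarce in WT, but not all of them. The WT libraries held 1463 and 1191 counts on these CUTs. Their median summed count was 4 in a total of 5893662 counts, 46 had none and 69 (21.9%) had more than 10. Scaled to CPM, 10 counts over both *rpb1-84* libraries correspond to 0.922 CPM, and 138 of the 315 were above that level in WT. A description as nearly absent while Rrp6 is present therefore held for *rpb1-84*, by construction, and only in part for WT. CUT567, the most abundant of them, had 211 and 153 counts in WT and alone took 13.7% of the WT counts on these CUTs. CUT459 followed with 45 and 32 WT counts and CUT729 with 41 and 27.

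**Figure D1:**
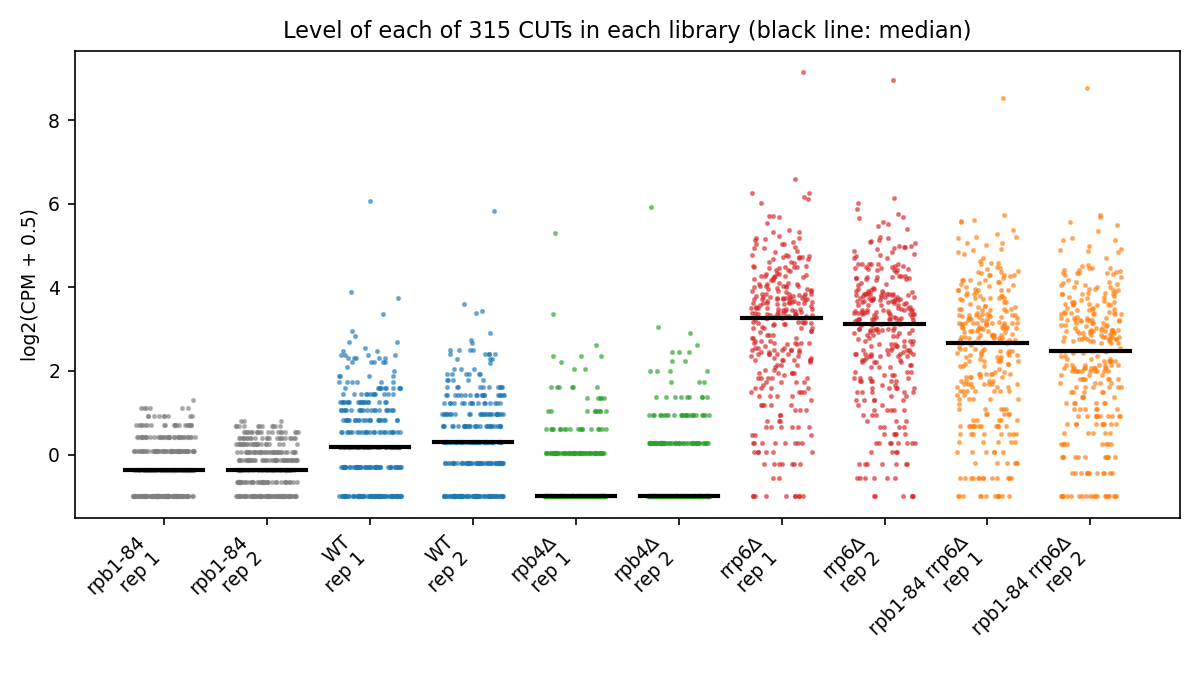
Level of each of the 315 CUTs in each of the 10 libraries, as log2(CPM + 0.5) on the vertical axis, with 1 point per CUT and a black line at the median of each library. The *rpb1-84* points lie low because that strain chose the CUTs, the median count was 2 in both WT libraries and 0 in both *rpb4∆* libraries, and it reached 51 and 46 in *rrp6∆* and 32 and 22 in *rpb1-84 rrp6∆*.

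In the libraries labelled *rrp6∆*, most of these CUTs were read at much higher counts. These libraries held 24252 and 21691 counts on them, and the median summed count was 97 (quartiles 34.5 and 160), with 278 CUTs (88.3%) above 10 counts and 4 at 0. The share of all counts was 9.14 times that of WT, and between 8.40 and 9.92 times over the 4 pairs of libraries. The libraries of both strains did not overlap. For the other 610 CUTs the share was 0.458% in WT and 3.03% in *rrp6∆*, a ratio of 6.62 (6.34 to 6.92 over the 4 pairs). The pairs of the members lay above those of the other CUTs and did not overlap with them. The rule asked for low counts in a strain with Rrp6, which can by itself favour a larger ratio to WT. The gap between members and other CUTs is therefore a description. No test was made of these ratios, since 2 libraries against 2 cannot give an exact two-sided permutation p below 0.333. CUT567 did not carry the ratio, which was 9.20 without it, while without the 10 most abundant CUTs it was 8.23.

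Levels in *rrp6∆* were very uneven among the members. Over both *rrp6∆* libraries, 37 CUTs had 0 to 10 counts, 63 had 11 to 50, 60 had 51 to 100, 95 had 101 to 200, 46 had 201 to 400 and 14 had more than 400. The 10 most abundant CUTs took 26.3% of the counts on all 315. Between replicate cultures, the levels of the members on the log2(CPM + 0.5) scale correlated with a Pearson r of 0.975 in *rrp6∆* and 0.968 in the double mutant, against 0.782 in WT, 0.716 in *rpb4∆* and 0.344 in *rpb1-84*. These are correlations across CUTs, given as a description, and in the last 3 strains most members rest on a few counts.

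**Figure D2:**
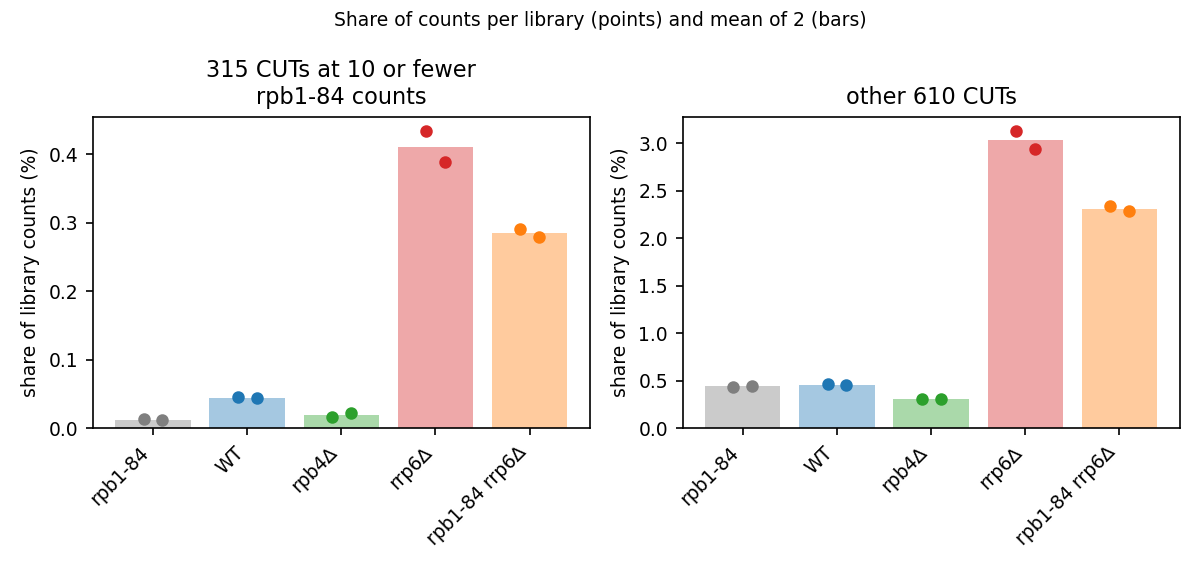
Share of all counts of a library, in percent, taken by the 315 CUTs (left) and by the other 610 CUTs (right), with 1 point per library and a bar from 0 to the mean of 2 libraries. The 315 CUTs took 0.411% in *rrp6∆* and 0.286% in *rpb1-84 rrp6∆* against 0.0449% in WT, and the vertical axes of the panels differ.

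CUT567 stood far above the rest in *rrp6∆*. It had 3197 and 2785 counts there, 2028 and 1874 in the double mutant, 75 and 85 in *rpb4∆* and 7 and 3 in *rpb1-84*. It was thus well read in WT and *rpb4∆*, while its low count in *rpb1-84* is what made it a member. After TMM scaling its level was 481 ± 34.6 CPM in *rrp6∆* and 68.8 ± 8.50 CPM in WT (SD, n = 2 each), and the fitted log2 difference was 2.80 ± 0.115 (SE, edgeR adjusted p = 7.87e-22).

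The next CUTs by level in *rrp6∆* came from a much lower start. CUT308 had 541 and 393 counts in *rrp6∆* and none in either WT library, which makes it at least 132-fold higher (against 3 counts over the WT group). CUT029 rose from 12 and 7 counts in WT to 430 and 360, a log2 fold change of 4.13 ± 0.226 (edgeR adjusted p = 5.63e-18). CUT831 went from 7 and 5 counts to 426 and 299 (4.66 ± 0.271, edgeR adjusted p = 3.68e-17). None of these had overlapping groups. CUT269 had 14 and 7 counts in WT and 385 and 326 in *rrp6∆*, with a log2 fold change of 3.83 ± 0.224. CUT604 had 5 and 2 counts in WT and 398 and 283 in *rrp6∆*, with 5.33 ± 0.309, which became 6.01 without the first WT library. CUT882 had 1 count and 0 in WT and 359 and 282 in *rrp6∆*, a ratio of 271 whose 95% exact counting interval ran from 48.5 to 10736. Its fitted log2 fold change of 7.89 was 10.99 without the first WT library, which holds that count, and 7.08 without the second. Such intervals and bounds include counting error and leave out how much cultures vary. CUT691 (6 and 6 WT counts, 291 and 261 in *rrp6∆*), CUT580 (16 and 12, then 292 and 253) and CUT428 (13 and 9, then 287 and 234) complete the 10 highest, with log2 fold changes of 4.27, 3.04 and 3.32 and edgeR adjusted p-values of at most 7.52e-15.

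A group of 46 members had no count in WT, and 20 of them had more than 10 counts in *rrp6∆*. For 19 of the 46 the bound against 3 WT counts was above 2-fold. After CUT308, CUT920 had the largest bound, with 144 and 130 counts in *rrp6∆* (at least 38.7-fold higher). CUT731 (45 and 52 counts) and CUT719 (51 and 46) were each at least 13.7-fold higher. CUT531 (41 and 42) was at least 11.7-fold higher, CUT760 (32 and 32) and CUT725 (36 and 28) each at least 9.03-fold, CUT397 (30 and 27) at least 8.04-fold and CUT800 (29 and 17) at least 6.49-fold. For all 8 the *rpb4∆* libraries held no count except for 1 count on CUT800. Among those named, CUT719 had no count in *rpb1-84* either, whereas CUT531 had 6 and 2 counts there and CUT725 2 and 6. Another 83 members had 1 to 3 counts over both WT libraries.

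The 186 members with more than 3 WT counts allow a ratio without a bound. Their median ratio of normalized counts was 6.85 in *rrp6∆* over WT (quartiles 3.88 and 9.62), and 170 of them (91.4%) were above 2-fold. Over all 9125 features with more than 3 WT counts the median ratio was 0.953 and 29.1% were above 2-fold, and over the 592 other CUTs with that many the median was 4.60 and 77.5%. Without any filter on counts, WT stayed below *rrp6∆* in every pair of libraries for 291 of the 315 members (92.4%), where 42.9% of all features did so, and above it for 1, where 38.1% did. Of the other CUTs, 88.4% stayed below and 5.90% above. The rule asked for low counts in a strain with Rrp6 and can favour such gaps between members and other CUTs.

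Transcripts were also tested with edgeR's quasi-likelihood model over the 6 WT, *rrp6∆* and double mutant libraries, and called when the absolute log2 fold change was above 1 and the Benjamini-Hochberg adjusted p below 0.1. The filter on low counts asked for 2.04 CPM in at least 2 libraries and kept 253 members. Of these, 173 were over that level in no WT library, so they had passed only through strains without Rrp6 and had to differ. The counts of calls are therefore descriptions. Of the 253 tested, 240 were called higher in *rrp6∆* than in WT, where 32.2% of all 9197 features tested were. Over all CUTs of each set, tested or not, 76.2% of the members and 77.7% of the other CUTs were called higher. The median over the 253 members tested was 3.10 on the log2 scale (quartiles 2.39 and 3.84), beside −0.01 over all features and −0.48 over ORFs. Over the other CUTs tested it was 2.23 (quartiles 1.20 and 3.14). No member was called lower, by edgeR or by DESeq2, or reached an unadjusted edgeR p below 0.05 in that direction, and 6.75% of all features were called lower. With TMM factors taken from ORFs only, the median of all features moved up by 0.49 and that of the members to 3.56, with 248 called higher.

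The 62 members that missed the filter had at most 8 counts over both WT libraries and at most 30 over both *rrp6∆* libraries, with a median of 9 in *rrp6∆*. Of all 315, 9 had 3 or fewer counts over the 4 libraries without Rrp6. CUT084, CUT243 and CUT573 had no count in any of the 10 libraries, and CUT162, CUT230, CUT461, CUT471, CUT533 and CUT851 were the other 6. Each of these 6 had 1 to 3 counts over the 4 libraries, too few to compare strains at this depth.

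The 13 members that were tested and not called included those with the highest WT levels after CUT567. CUT459 was at 14.5 ± 2.00 CPM in WT and 17.0 ± 0.320 CPM in *rrp6∆* (SD, n = 2 each), and the fitted log2 difference was 0.22 ± 0.202 (edgeR adjusted p = 0.339). CUT729 was at 12.8 ± 2.44 and 15.7 ± 1.20 CPM, with 0.28 ± 0.217 (edgeR adjusted p = 0.243). By the rule these CUTs were nearly unread in *rpb1-84*, with 4 and 3 counts for CUT459 and 3 and 7 for CUT729. By TMM scaling over all features they were about as high in WT as in *rrp6∆*. This likeness depends on the scaling. The median of all features in this comparison moved up by 0.49 with TMM factors from ORFs only and by 0.32 with total counts. CUT141, named here after its values were seen, was the only member with both WT libraries above both *rrp6∆* libraries after TMM scaling (21 and 14 counts in WT, 33 and 24 in *rrp6∆*, log2 fold change −0.53, edgeR adjusted p = 0.144). Scaled to library totals alone, its groups overlapped.

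The double mutant was compared with the same WT libraries, so that its values share them with those of *rrp6∆*. It carries the allele of the libraries that chose the members. Its libraries held 15984 and 12032 counts on the 315 CUTs, or 0.286% ± 0.00813 of the total (SD, n = 2), 6.35 times the share in WT (6.05 to 6.67 over the 4 pairs of libraries). For the other CUTs the ratio was 5.05, and the rule can favour this gap as well. The median summed count was 54 (quartiles 19 and 99), 260 members (82.5%) had more than 10 counts and 7 had none. Both libraries of the double mutant were above both WT libraries for 255 members (81.0%) and below for 10, where 40.9% and 35.8% of all features were. Of the other CUTs, 81.0% were above and 8.69% below, so the share above was no trait of the members. Among the 186 members with more than 3 WT counts the median ratio to WT was 5.15 (quartiles 2.54 and 8.22), beside 0.977 over all features chosen in the same way. Of the 253 tested, 210 were called higher than WT by edgeR and none lower, where 28.0% and 6.4% of all features were. Over all CUTs of each set, tested or not, 66.7% of the members and 70.2% of the other CUTs were called higher. In the lower direction 2 members had an unadjusted p below 0.05, and DESeq2 called none.

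By the bound against 3 WT counts, CUT308 was again first in the double mutant, with 103 and 69 counts (at least 30.5-fold higher than WT). CUT920 (74 and 49 counts) was at least 21.8-fold higher, CUT731 (43 and 31) at least 13.1-fold and CUT381 (32 and 26) at least 10.3-fold. CUT719 was at least 7.99-fold higher, CUT725 at least 6.21-fold, CUT800 at least 4.62-fold, CUT760 at least 4.44-fold and CUT036 at least 3.73-fold. CUT882, with 106 and 86 counts, had a ratio of 102 to its single WT count (95% exact counting interval 18.1 to 4060). All of these had 0 counts in both WT libraries except CUT882.

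**Figure D3:**
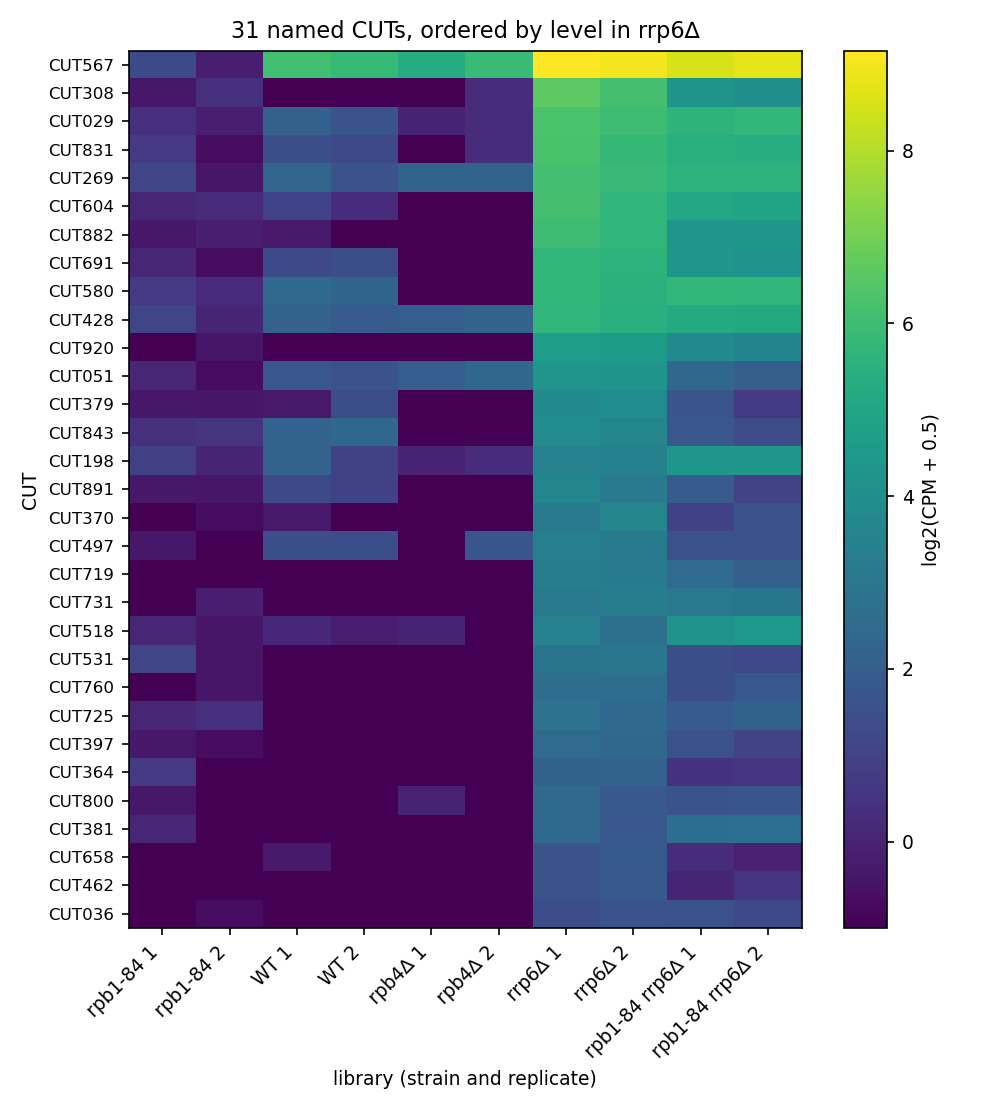
Levels of 31 named CUTs in the 10 libraries, as log2(CPM + 0.5) by colour, with CUTs in rows ordered by their level in *rrp6∆* and libraries in columns. The 4 columns of *rrp6∆* and *rpb1-84 rrp6∆* are the bright ones, CUT567 is bright in WT and *rpb4∆* as well, and CUT518 and CUT198 are brighter in the double mutant than in *rrp6∆*.

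Set against *rrp6∆* alone, the double mutant held less of these CUTs. The share of counts was 0.695 times that of *rrp6∆* (0.646 to 0.750 over the 4 pairs of libraries), with both libraries of the double mutant below both of *rrp6∆*. For the other CUTs the ratio was 0.763 (0.731 to 0.797), so that the pairs of both sets overlapped. Per count on ORFs the ratio was 0.635, as ORFs took a larger share of the counts in the double mutant. Without a filter, both libraries of the double mutant were below both of *rrp6∆* for 166 members (52.7%) and above for 35 (11.1%), where 36.3% and 31.2% of all features were, and 50.5% and 22.3% of the other CUTs. Among the 275 members with more than 20 counts over these 4 libraries the median ratio was 0.769 (quartiles 0.520 and 0.971). Of these, 61 (22.2%) were below 0.5 and 2 above 2, while 7.49% of all features chosen so and 8.55% of the other CUTs were below 0.5. Since the rule used libraries with the same *rpb1* allele, it can favour lower ratios among the members than among the other CUTs.

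In the edgeR fit, 57 of the 253 members tested were called lower in the double mutant than in *rrp6∆* and 2 higher, where 6.49% and 1.96% of all features were. That is 22.5% of the members tested, beside 8.26% of the other CUTs. The double mutant carries the allele of the libraries that chose the members. The rule can therefore favour this gap, which supports nothing here. Members were also read at lower counts, with a median sum of 97 in *rrp6∆* against 236.5 for the other CUTs. The median log2 fold change was −0.36 (quartiles −0.92 and −0.04) over the members and −0.22 (quartiles −0.55 and 0.14) over the other CUTs tested. It was −0.02 over all features and 0.14 over ORFs. Since 13 of the members tested were over the filter level in no library of the double mutant, the count was repeated over the 218 that were over it in all 4 libraries, where 36 (16.5%) were called lower, against 4.34% of all features in that position. With TMM factors from ORFs only, all features moved by −0.15, the members' median was −0.50 and 71 were called lower, all 57 among them. DESeq2 called 41, of which 40 were among the 57.

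**Figure D4:**
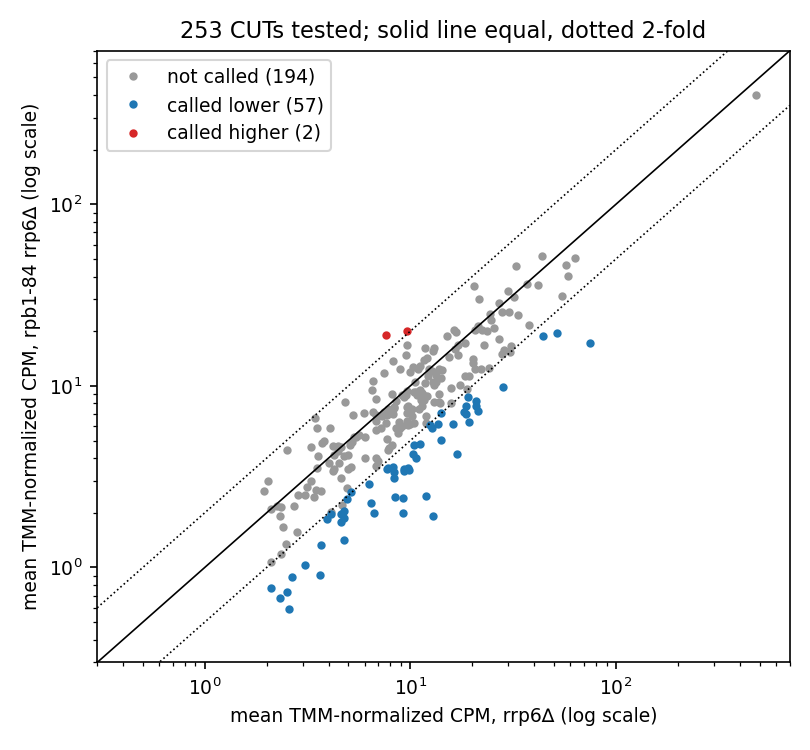
Mean TMM-normalized CPM of the 253 CUTs tested, in *rrp6∆* (horizontal) and in *rpb1-84 rrp6∆* (vertical), both on log scales, with 1 point per CUT, a solid line of equal levels and dotted lines of a 2-fold difference. The 57 CUTs called lower lie below the solid line at all heights short of CUT567, the single point at the upper right, and the 2 called higher are CUT518 and CUT198.

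CUT379 had the largest decrease. It had 78 and 82 counts in *rrp6∆*, 15 and 5 in the double mutant and 1 and 6 in WT, a log2 fold change against *rrp6∆* of −2.66 ± 0.320 (SE, edgeR adjusted p = 2.84e-08). CUT370 had 48 and 66 counts in *rrp6∆* and 8 and 11 in the double mutant (−2.24 ± 0.339, edgeR adjusted p = 1.94e-06). CUT843 went from 82 and 66 to 16 and 9 counts (−2.22 ± 0.284, edgeR adjusted p = 8.24e-08). For all of these the groups lay far apart, although the replicates of CUT379 in the double mutant differed 3-fold in counts. Without the first library of the double mutant its log2 fold change was −3.43, and without the second −2.24. CUT370 in the first and CUT379 in the second library of the double mutant lay below the filter level of 2.04 CPM. Their levels there rest on few counts. CUT308, the second most abundant member in *rrp6∆*, was at 75.0 ± 14.9 CPM there and at 17.3 ± 1.66 CPM in the double mutant (SD, n = 2 each), which is −2.11 ± 0.147 on the log2 scale (edgeR adjusted p = 1.13e-13).

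The other 6 of the 10 largest decreases were CUT658 (−2.04), CUT051 (−1.99), CUT364 (−1.96), CUT891 (−1.86), CUT497 (−1.79) and CUT462 (−1.78). For CUT051, CUT497 and CUT891 the edgeR adjusted p-values were at most 1.13e-05, and the value of CUT891 was −2.48 without the first library of the double mutant. In the second library of the double mutant CUT891 lay below the filter level of 2.04 CPM, so its level there rests on few counts. CUT658, CUT364 and CUT462 had at most 5 counts in any library of the double mutant. They passed the filter only through *rrp6∆* and so had to be lower, and DESeq2 did not call them. Several of these CUTs stood close to their WT level in the double mutant. CUT051 was at 3.03 ± 0.225 CPM in WT, 16.9 ± 0.204 in *rrp6∆* and 4.19 ± 0.654 in the double mutant. CUT497 was at 2.47 ± 0.0139, 8.45 ± 0.353 and 2.45 ± 0.168 CPM in the same order. CUT891 was at 1.88 ± 0.343, 9.23 ± 2.16 and 2.43 ± 1.12 CPM. By mean level, each of them was higher in *rrp6∆* than in WT and within 1.5-fold of WT in the double mutant. CUT891 was below the filter level in both WT libraries. It passed only through strains without Rrp6, so its rise is a description. These CUTs were chosen as large decreases in the double mutant, which can favour levels near WT there. CUT843 had a log2 fold change of −0.96 against WT (13 and 13 WT counts, edgeR adjusted p = 0.0389), short of the fold needed for a call.

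CUT518 and CUT198 went the other way. CUT518 had 60 and 35 counts in *rrp6∆* and 96 and 90 in the double mutant, a log2 fold change of 1.31 ± 0.213 (edgeR adjusted p = 6.05e-06). CUT198 had 61 and 59 counts in *rrp6∆* and 109 and 88 in the double mutant (1.05 ± 0.194, edgeR adjusted p = 4.25e-05). Neither pair of groups overlapped after scaling. The call of CUT198 ended with TMM factors from ORFs only (0.90), and that of CUT518 without the second *rrp6∆* library (0.996). Both were scarce with Rrp6, CUT518 with 2 and 1 counts in WT and CUT198 with 13 and 4.

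The 10 most abundant members split between calls and near-equal levels. CUT567 was at 400 ± 52.2 CPM in the double mutant, a log2 fold change of −0.27 against *rrp6∆*. CUT029, CUT269 and CUT428 had −0.34, −0.30 and −0.22, and CUT580 had 0.23, all short of a call. CUT604 (−0.80) and CUT831 (−0.53) had larger decreases, also without a call. CUT882 (−1.40) and CUT691 (−1.24) were, with CUT308, the members of the 10 highest that were called lower.

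In the libraries labelled *rpb4∆* the 315 CUTs held 329 and 315 counts, or 0.0196% ± 0.00369 of the total (SD, n = 2). These libraries were the shallowest, so that 3 counts over both correspond to 0.896 CPM, and 169 members had no count, which allows a level of up to that value. Only 10 members had more than 10 counts, and 39 were above 0.922 CPM. CUT567 took 24.8% of all counts on these CUTs in *rpb4∆*, at a mean of 49.4 CPM. CUT564 followed with 19 and 8 counts (7.74 CPM) and CUT729 with 11 and 11 (6.73 CPM). The order of the first CUTs in *rpb4∆* thus differed from that in *rrp6∆*, where CUT564 had 19 and 16 counts in far deeper libraries. The background differs between *rpb4∆* and the other strains and cannot be told apart from the deletion.

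CUTs share reads or position with other annotated transcripts, and how reads on overlapping features were counted is not given in the sources used here. Of the 209 members with at least 100 counts over the 10 libraries, 9 had counts identical to those of a Nrd1-unterminated transcript (NUT) in every library. These were CUT024, CUT097, CUT309, CUT391, CUT579, CUT580, CUT630, CUT750 and CUT756, whose counts cannot be told apart from those of the NUT. For the 5 most abundant members, the feature of another class with the most similar profile over the 10 libraries, by Pearson r of log2(CPM + 0.5), was NUT1399 for CUT831 (r = 0.999), the row of YJR018W and YJR020W for CUT029 (0.998), NUT0800 for CUT269 (0.997), SUT105 for CUT308 (0.991) and YCR086W for CUT567 (0.987). These values describe likeness over 10 libraries that fall into those with and without Rrp6. NUT1399 had 462 and 336 counts in *rrp6∆*, close to the 426 and 299 of CUT831. YCR086W, in contrast, had 113 and 119 counts where CUT567 had 3197 and 2785.

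The genes that terminate, tail and degrade CUTs were read as a list of 21, of which 20 had a row (all but *CSL4*). *NRD1*, an RNA-binding subunit of the NNS complex, had 268 and 222 counts in WT and 1655 and 1535 in *rrp6∆*, a log2 fold change of 1.46 ± 0.0992 (SE, edgeR adjusted p = 2.74e-15), and 1.31 in the double mutant against WT. It was the only one of the 20 called higher in *rrp6∆*, where 32.2% of all features were. The listed genes are ORFs, and of the ORFs tested 4.17% were called higher. *PAP2* (also *TRF4*), the poly(A) polymerase of TRAMP, was called lower at −1.04, and *MTR4*, the helicase of TRAMP, at −1.11. They were 2 of 20, where 6.75% of all features and 11.5% of ORFs tested were called lower. These calls ended with TMM factors from ORFs only, at −0.55 and −0.62, with the direction kept. In the double mutant against WT, *NRD1* was called higher and *PAP2* lower (−1.33, or −0.99 with TMM factors from ORFs only). Between the double mutant and *rrp6∆* none of the 20 was called by edgeR or DESeq2, though 13 (65.0%) had an unadjusted edgeR p below 0.05, where 4603 of all 9197 features had. *RRP6* had −0.94 (−1.09, a call, with TMM factors from ORFs only). The subunits of the exosome core did not pass the thresholds in any of the comparisons, with *DIS3*, its catalytic subunit, at −0.26 in *rrp6∆* against WT and 0.41 in the double mutant against *rrp6∆*. Whether these genes had a part in the levels of the CUTs was not tested.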

How the data were processed

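QuantSeq 3′ libraries from 10 yeast cultures were analysed. The authors used FastQC, clipped adapters (Fastx Clipper), aligned reads with Hisat2 to R64 of S288C and counted them per annotated feature with featureCounts, and the deposited values are these counts without normalization. Versions of these tools, strand and overlap settings are not given in the sources used here. CUTs were taken by identifier, and the members by 10 or fewer counts over both *rpb1-84* libraries. Members and gene lists were chosen with earlier results of these data known.

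Counts of 6 libraries (WT, *rrp6∆*, *rpb1-84 rrp6∆*) were fitted with edgeR 4.0.16 (TMM, filterByExpr with a minimum count of 10, quasi-likelihood F test) in R 4.3.3 with limma 3.58.1, and p-values were adjusted over all 9197 features kept. The *rpb1-84* libraries, which chose the members, and the *rpb4∆* libraries, of another background, stayed out of the fit. Members with 0 counts in WT were given a bound against 3 counts over the WT group, and those with 1 to 3 a ratio with an exact 95% interval. Libraries held 1415496 to 7268211 counts. With 2 cultures per strain, p-values rest on the spread between these cultures. CPM given with an SD for WT, *rrp6∆* and the double mutant, and levels labelled TMM-normalized, were scaled by TMM. All other CPM printed, the filter level and log2(CPM + 0.5) were scaled to total counts. DESeq2 1.42.0 was an alternative. Shares and figures were made in Python 3.11.15 (numpy 2.4.6, pandas 2.3.3, scipy 1.17.1, matplotlib 3.10.9). The fit was tested on simulated counts with known changes.

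Named members were the 10 highest in *rrp6∆*, the 10 with the largest change among those called and not overlapping in each comparison, the 3 highest in WT and in *rpb4∆*, and up to 5 on either side of the limit. For the 5 highest, the most similar feature of another class was also named. Alternatives were other scalings, no filter, DESeq2, a replicate block, only the libraries compared, limits of 5 and 20 counts, shares per ORF count, leaving out the 10 most abundant members and each library in turn. The share ratios without CUT567 and the counts of listed genes under these settings were added after seeing the data. No sequence is printed, since positions of CUTs were not used here.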

Additional observations from a re-analysis of the deposited data

Results flagged for a closer look

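In 4 members both *rpb4∆* libraries, which entered no test, held at least 3 counts and lay above both WT libraries in CPM, without TMM scaling. That is 1.27% of the members, where 18.3% of all features and 10.5% of the other CUTs met the same criterion. CUT564 had a mean of 7.74 CPM in *rpb4∆* (9.84 and 5.65) and 1.90 and 2.57 CPM in the WT libraries. CUT051 had a mean of 4.28 CPM in *rpb4∆* (7 and 7 counts), against 9 and 7 counts in the deeper WT libraries. CUT925 had a mean of 3.06 CPM in *rpb4∆* (5 and 5 counts, WT 6 and 2), and CUT576 a mean of 2.80 CPM (4 and 5 counts, WT 4 and 4). The strain background differs between these libraries and cannot be told apart from the deletion, and the difference was not tested.

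CUT675 was flagged because its counts were higher in *rpb1-84* than in WT and lower in the double mutant than in *rrp6∆*. It had 1 and 6 counts in *rpb1-84* and none in WT, whereas it had 3 and 2 counts in *rrp6∆* and 1 and 1 in the double mutant, a mean of 0.207 CPM there. The *rpb1-84* counts are those that the rule used, and no count in WT allows a level of up to 0.509 CPM. All of these counts lie near the floor, so they show no opposite effect of the allele. The difference was not tested.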

How the results depend on the processing

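No fold change of a named member and no share ratio of the members changed direction under the settings tried. With TMM factors from ORFs only, the median of all features in *rrp6∆* against WT went from −0.01 to 0.48, and *MTR4* in the double mutant against *rrp6∆* from 0.14 to −0.01, without a call. At 20 or fewer *rpb1-84* counts, which gave 505 members with 441 tested, 411 members were called higher in *rrp6∆* and 368 in the double mutant than in WT, 2 were lower in the double mutant than in WT, and 6 were higher in it than in *rrp6∆*. At 5 or fewer, with 193 members and 138 tested, these counts were 135 and 122, and against *rrp6∆* the double mutant had 1 higher and 32 lower. Members not detected without Rrp6 were 27 at a limit of 10 counts instead of 9 at 3. The 2 members higher in the double mutant than in *rrp6∆* were 1 with TMM factors from ORFs only and 1 with total counts, and *NRD1* and *NAB3* made 2 listed genes higher in the double mutant than in WT with TMM factors from ORFs only. Per ORF count the share ratios were 11.8 for *rrp6∆* over WT, 7.47 for the double mutant over WT and 0.635 for it over *rrp6∆*. At a limit of 5 counts the first were 11.6 and 7.95, at 20 the second was 6.70, and without the 10 most abundant members they were 8.23 and 5.82.

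With each library left out in turn, members called higher were 236 to 249 in *rrp6∆* and 205 to 214 in the double mutant against WT, those lower in the double mutant 0 to 1 against WT and 47 to 64 against *rrp6∆*, and those higher in it 1 to 5. Members without a count in WT were 74 to 77 with 1 WT library. The share ratios ran from 8.64 to 9.63, 6.18 to 6.54 and 0.660 to 0.735. A lone library was assumed to vary like the other strains.

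Replicate numbers did not pair the samples (correlations of deviations −0.00217, −0.0147 and 0.046 over 6280 features). With the replicate block, 239 and 208 members were called higher than WT, and 58 lower in the double mutant than in *rrp6∆*, with all 57 among them. Of 517 fold changes of named members under other settings, 509 kept their direction and call and 8 lost the call. These were CUT198 with TMM factors from ORFs only and total counts, CUT364 and CUT658 with DESeq2, CUT462 with DESeq2 and without 1 library of either strain, and CUT518 without the second *rrp6∆* library. CUT036, CUT760 and CUT800 did not pass the filter in the double mutant with only the libraries compared. The causes were not tested.

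Depth limits the members with Rrp6 present, where 3 counts are 0.509 CPM in WT and 0.896 CPM in *rpb4∆*.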
